A study of Mus musculus with 6 samples.

Results

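Dapl1, Nrn1 and Igfbp4 are 3 of the 34745 genes in the deposited tables. They were taken by gene name as genes known from the naive state of T cells, and they were chosen because they stood lower in Scd-1-/- than in WT effector cells in these same libraries. That difference is therefore described here with its values and was not tested. The libraries were made from CD8+ Teff cells, 3 from WT mice (C57BL/6J, purchased) and 3 from Scd-1-/- mice (B6.129-Scd1tm1Ntam/J), numbered as replicates 1, 2 and 3 in each group. The knockout is carried by the whole animal and not by T cells alone, and the sources used here do not describe the WT mice as littermates. The methods of the study name male mice of 6 to 8 weeks. Splenic CD8+ T cells were enriched with a magnetic kit, stimulated with anti-CD3 at 5 µg/mL and anti-CD28 at 0.5 µg/mL in the presence of IL-2 at 100 U/mL for 3 days, and kept in IL-2 for 3 days more until harvest on day 6.

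Naive CD8+ T cells keep a programme of quiescence and lymph node homing, held by transcription factors such as TCF1, and lose much of it when the T cell receptor and CD28 are engaged and the cells become cytotoxic effectors. Dapl1 encodes a small intracellular protein related to the death-associated protein Dap and has been linked to restraint of NFAT, the factor that calcineurin activates after T cell receptor signalling. Nrn1 encodes neuritin, a GPI-anchored protein first known from neurite growth and synapses and later from anergic and regulatory T cells. Igfbp4 encodes a secreted protein that binds insulin-like growth factors and can also block Wnt signalling at the receptors Frizzled and Lrp6. Transcripts of all 3 genes are commonly seen in naive T cells and at lower levels after activation. No library of naive cells was analysed here, so this pattern could not be checked in these samples.

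In GRCm38 coordinates, Dapl1 (ENSMUSG00000026989) is a plus-strand gene at 59484653 to 59505020 of chromosome 2. Nrn1 (ENSMUSG00000039114) is a minus-strand gene at 36725361 to 36735131 of chromosome 13, and Igfbp4 (ENSMUSG00000017493) a plus-strand gene at 99041244 to 99054392 of chromosome 11. All are protein-coding. Their longest annotated transcripts hold 663 bases in 5 exons, 1779 bases in 3 exons and 3831 bases in 4 exons. The 250 bases before the start of Dapl1 and of Igfbp4 are shown since these genes were low together in the Scd-1-/- libraries. They are from RefSeq on GRCm38.p6, at chr2:59484403-59484652 and chr11:99040994-99041243, both on the plus strand and read 5′ to 3′. Nrn1 was not among the promoters used here. Capitals mark TATAAA and CAAAG, the core bound by TCF/LEF factors.
Dapl1: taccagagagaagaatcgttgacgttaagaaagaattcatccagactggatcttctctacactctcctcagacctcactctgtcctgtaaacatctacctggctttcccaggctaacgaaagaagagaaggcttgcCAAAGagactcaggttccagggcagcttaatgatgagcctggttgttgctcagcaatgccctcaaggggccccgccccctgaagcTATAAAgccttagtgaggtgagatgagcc
Igfbp4: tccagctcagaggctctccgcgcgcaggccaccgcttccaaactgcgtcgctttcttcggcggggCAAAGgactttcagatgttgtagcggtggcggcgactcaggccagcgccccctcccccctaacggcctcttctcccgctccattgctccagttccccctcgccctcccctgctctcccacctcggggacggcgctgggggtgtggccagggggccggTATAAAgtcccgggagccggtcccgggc

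Both windows held 1 TATAAA on the plus strand, its first base 29 bases before the start of Dapl1 and 28 bases before that of Igfbp4. TATAAA was searched on the plus strand only and was found in 7.55% of 32544 promoter windows of the same length. CAAAG, searched on both strands, stood 114 bases before the Dapl1 start and 185 bases before the Igfbp4 start, and 48.7% of all windows held it. GGAAA, the core bound by NFAT, was found on the minus strand 147 bases before the start of Dapl1 and not before that of Igfbp4 (55.7% of all windows). GGGCGG, a GC box, was likewise found once, on the minus strand 43 bases before the start of Dapl1, and not before that of Igfbp4 (33.0% of all windows). No match overlapped another. The windows differed in composition, with 50% G and C before Dapl1 and 69.2% before Igfbp4, where the median of all windows was 52.4%. A match is a description of letters, and no binding was measured in these samples.

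The libraries held 14034479 to 15866216 counts. The deleted gene, Scd1, had 4272, 3074 and 3761 counts in WT and 30, 36 and 20 counts in Scd-1-/- Teff (log2 fold change -7.04), so that the genotype labels matched its level in every library. Replicate 1 of both genotypes stood apart from the other libraries: the first principal component of the log2 CPM (counts scaled to the library total) held 42.9% of the variance and parted both replicate 1 libraries from the rest, and the second, with 36.3%, parted the genotypes. Neither the labels nor the methods say what a replicate number stands for. Results are therefore given for all 6 libraries, within each number and for replicates 2 and 3 alone. CD8 T cell markers were high in every library, with 6 genes that summed to 1501 to 1853 FPKM (fragments per kilobase of transcript, scaled to the library total) in WT and 1429 to 1664 FPKM in Scd-1-/- Teff. Cd8a itself was lower in each Scd-1-/- library, with 43.2, 47.6 and 47.1 FPKM in WT and 36.6, 27.9 and 33.7 FPKM in Scd-1-/- Teff. Its fitted change of -0.46 on the log2 scale did not pass (adjusted p = 0.297, edgeR with Benjamini-Hochberg adjustment). Ms4a1 and Pax5 of B cells, Adgre1 of macrophages, Alas2 of erythroid cells, Col3a1, Dcn and Pdgfra of fibroblasts and Cdh5 of endothelium had no counts, whereas Cd79b of the B cell list had 93 to 342 counts and Pecam1 of the endothelial list 514 to 987, both lower in Scd-1-/- Teff.

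Dapl1 was the member with the largest difference between the genotypes. Its FPKM was 16.9, 30.6 and 36.7 in WT replicates 1, 2 and 3 and 1.74, 2.28 and 3.00 in Scd-1-/- replicates 1, 2 and 3. Every Scd-1-/- library lay far below every WT library, and in both genotypes replicate 1 was the lowest. The WT mean of 28.1 ± 10.2 FPKM and the knockout mean of 2.34 ± 0.635 FPKM (SD, n = 3 each) were 12.0-fold apart. The counts behind them were 199, 334 and 406 in WT and 21, 25 and 37 in Scd-1-/- Teff. On the log2 scale, the edgeR fit gave -3.55 for Scd-1-/- over WT, the third lowest value of the 9627 genes tested, which were those with a mean FPKM of at least 1. WT Teff expressed Dapl1 above 80.3% of the tested genes by mean FPKM, and Scd-1-/- Teff above 19.5% of them.

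Nrn1 showed the smallest difference of the 3 genes, again without overlap. Its FPKM was 17.8, 26.3 and 29.0 in WT replicates 1, 2 and 3 and 6.23, 4.72 and 6.20 in Scd-1-/- replicates 1, 2 and 3. The lowest WT library stayed above the highest Scd-1-/- library. The means were 24.3 ± 5.86 and 5.72 ± 0.866 (SD, n = 3 each), 4.26-fold apart, from 583, 800 and 892 counts in WT and 210, 144 and 213 counts in Scd-1-/- Teff. The fitted log2 fold change was -2.06, at rank 24 from the lowest. Nrn1 transcripts thus stood above those of 77.8% of tested genes in WT and 43.6% in Scd-1-/- Teff.

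Igfbp4 behaved differently, since its level moved with the replicate number as much as with the genotype. Its FPKM was 8.64, 72.7 and 72.3 in WT replicates 1, 2 and 3 and 1.20, 10.2 and 10.3 in Scd-1-/- replicates 1, 2 and 3. The groups overlapped, because WT replicate 1 was lower than Scd-1-/- replicates 2 and 3. The means, 51.2 ± 36.8 and 7.24 ± 5.23 (SD, n = 3 each), were 7.07-fold apart, and the fitted log2 fold change was -2.79, at rank 7 from the lowest. The counts were 801, 6229 and 6281 in WT and 114, 879 and 1000 in Scd-1-/- Teff, so that neither group's low replicate was near the floor of 3 counts. By mean FPKM, Igfbp4 was above 88.7% of tested genes in WT and 50.5% in Scd-1-/- Teff. Among all tested genes, 8.32% had Scd-1-/- libraries that all lay under the WT libraries. Dapl1 and Nrn1 are such genes, and the choice of members used this contrast.

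**Figure D1:**
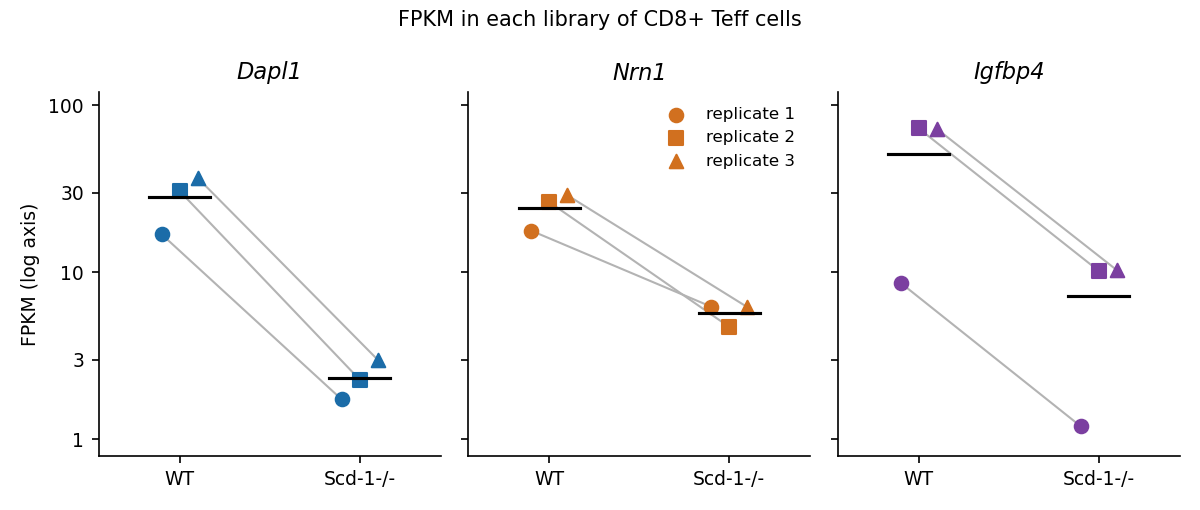
FPKM of Dapl1, Nrn1 and Igfbp4 (log axis) in the 3 WT and 3 Scd-1-/- libraries. Symbols are libraries, grey lines join equal replicate numbers and black bars are group means. Dapl1 and Nrn1 separate the genotypes in every library, whereas WT replicate 1 of Igfbp4 (8.64) lies under Scd-1-/- replicates 2 and 3 (10.2 and 10.3).

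The order of the 3 genes changed with these shifts. FPKM is scaled per length, so that levels of different genes can be set side by side, but the lengths behind the deposited values were 777 bases for Dapl1, 2165 bases for Nrn1 and 6109 bases for Igfbp4. All exons joined in GENCODE gave 679, 2249 and 4416 bases, so that the lengths of Dapl1 and Igfbp4 behind the deposited values were longer than this and that of Nrn1 was shorter. Another length would scale the values of a gene in every library alike. On the deposited scale, Igfbp4 was the highest of the 3 in replicates 2 and 3 of both genotypes and the lowest in replicate 1 of both. Nrn1 and Dapl1 were close to each other in WT, where their ranges overlapped. In Scd-1-/- Teff, all Nrn1 values (4.72 to 6.23 FPKM) were above all Dapl1 values (1.74 to 3.00 FPKM).

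Within each replicate number, the ratio of the genotypes gave another order of stability. The WT level of Igfbp4 was 7.21, 7.12 and 7.01 times the Scd-1-/- level in replicates 1, 2 and 3. These ratios were nearly the same although the level itself moved about as far between the replicate numbers: replicates 2 and 3 averaged 8.38 times replicate 1 in WT and 8.56 times in Scd-1-/- Teff. The SD of the 3 log2 CPM ratios of Igfbp4 was 0.05, where the counting error of a single ratio was 0.05 to 0.14, and 4.07% of tested genes had an SD as small. For Dapl1, the WT level was 9.73, 13.4 and 12.2 times the Scd-1-/- level, with an SD of 0.24 on the log2 scale and a counting error of 0.25 to 0.33. The ratios of Nrn1 were 2.85, 5.58 and 4.67 for replicates 1, 2 and 3, with an SD of 0.49 against a counting error of 0.11 to 0.13. The smallest Nrn1 ratio was that of replicate 1, and 87.9% of tested genes had an SD as small or smaller. With replicates 2 and 3 alone, the log2 fold changes were -3.62 for Dapl1, -2.30 for Nrn1 and -2.78 for Igfbp4.

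**Figure D2:**
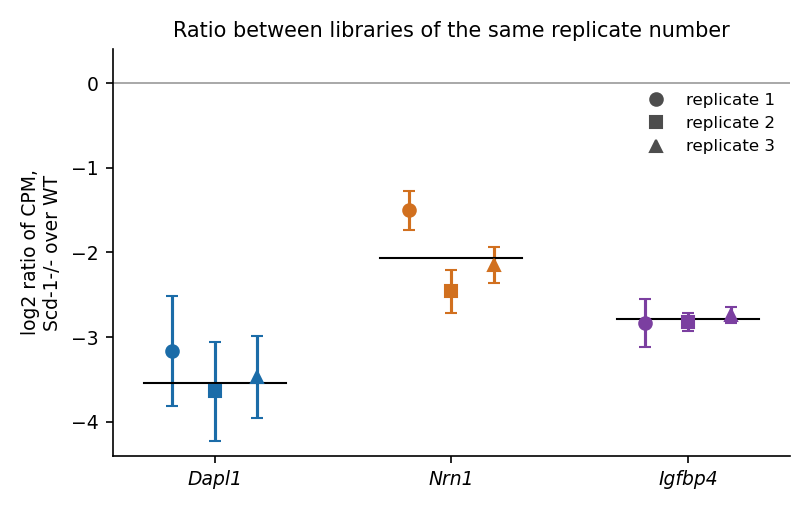
Log2 ratio of the CPM in Scd-1-/- over WT Teff for the libraries of equal replicate number. Bars are 95% intervals for counting error only, and black lines are the fits to all 6 libraries. The Igfbp4 ratios lie between -2.83 and -2.74, whereas those of Nrn1 run from -2.46 to -1.50.

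The shift of replicate 1 was not used to choose the genes, and it set Igfbp4 apart. Replicate 1 was lower than the mean of replicates 2 and 3 by a log2 CPM difference of -3.04 for Igfbp4, averaged over both genotypes, the fifth lowest of the 9627 tested genes. For Dapl1 the same difference was -0.74 (rank 507 from the lowest), and for Nrn1 it was -0.19 (rank 3017). Of the tested genes, only Igfbp4 and Csf2, which encodes the cytokine GM-CSF, had replicate 1 at least 4-fold below each of replicates 2 and 3 in both genotypes, while 12 genes had it at least 4-fold above. At 2-fold, 65 genes were lower in replicate 1 of both genotypes, 8 of them with a fitted genotype difference of -1 or less. Csf2 differed from Igfbp4 in the direction of its fitted genotype difference, which was 1.39. Whether the shift comes from the animals, the culture or the library was not tested.

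**Figure D3:**
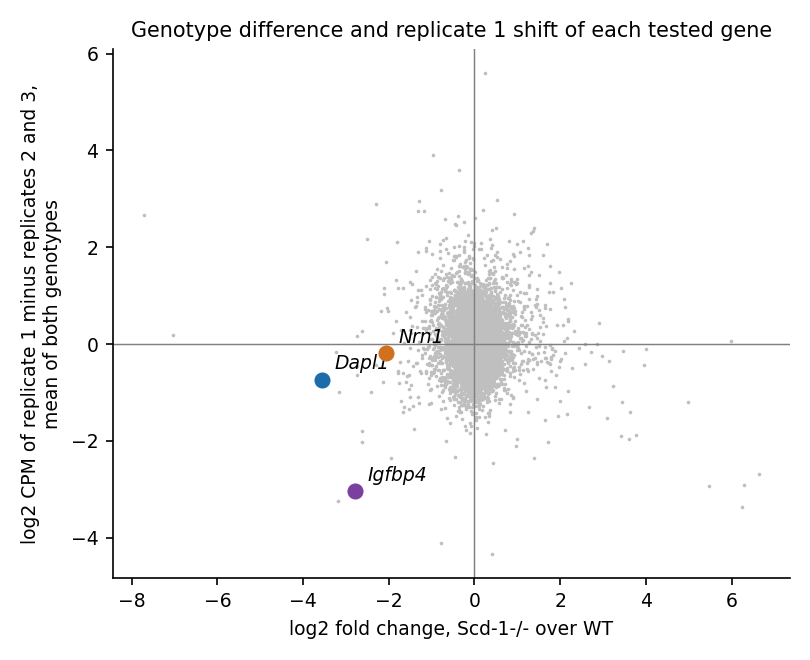
Fitted log2 fold change between the genotypes (horizontal) against the log2 CPM of replicate 1 minus replicates 2 and 3, averaged over both genotypes (vertical), for 9627 genes. Igfbp4 is low on both axes (-2.79 and -3.04), and Dapl1 and Nrn1 are low on the genotype axis, with replicate shifts of -0.74 and -0.19.

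Genes with the most similar pattern were found by the root mean square difference between log2 CPM values, each centred on the gene's own mean, over the 6 libraries. Since the members were chosen for their genotype difference, their nearest genes share its direction by construction, and no test is given. The nearest to Dapl1 was Tcf7, which encodes TCF1, at 0.39, followed by H2-Eb1, an MHC class II chain (0.54), Ifngr2, a chain of the interferon-gamma receptor (0.61), Tmie (0.69) and the actin bundler Espn (0.69). The median over all tested genes was 1.77, and Nrn1 came next after these 5 at 0.75. The nearest to Nrn1 were Tmie (0.17), the actin-binding calponin Cnn3 (0.23), H2-Eb1 (0.25), Cd74, the invariant chain of MHC class II (0.30) and Izumo1r, the folate receptor FR4 of anergic and regulatory T cells (0.35), with a median of 1.08 over all tested genes.

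The genes nearest to Igfbp4 were others. They were Iigp1, an interferon-inducible GTPase (0.55), the cytokine Lif (0.73), the Hedgehog signal transducer Smo (0.81), Cyp11a1, which starts steroid synthesis from cholesterol (0.95), and Ptgfrn (0.97), where the median was 2.02. Iigp1 had 137, 326 and 418 counts in WT replicates 1, 2 and 3 and 10, 70 and 66 counts in Scd-1-/- replicates 1, 2 and 3. Lif had 152, 1132 and 1177 counts in WT and 87, 274 and 304 counts in Scd-1-/- Teff. Like Igfbp4, both were lowest in replicate 1 within each genotype, and the Lif groups overlapped. None of the 5 genes was among the 5 nearest to Dapl1 or Nrn1. Igfbp4 itself was at rank 40 from Dapl1 and at rank 9114 from Nrn1. In the other direction Dapl1 was at rank 10 (1.14) and Nrn1 at rank 46 (1.42) from Igfbp4, both under its median, so that a rank depends on the gene it is counted from.

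A list of 25 other naive and stem-like T cell genes gave the surroundings of the 3 members. The list was chosen with earlier results of these data known. Its counts beside the shares over all genes are therefore a description and no independent evidence. Of the 23 that were tested, 4 fell in Scd-1-/- Teff by the thresholds of the study (a change of at least 1 on the log2 scale, and p under 0.001 without adjustment in edgeR's quasi-likelihood test), and 0 rose. Over all 9627 tested genes, 0.239% fell, 0.499% rose and thus 0.738% passed by the same rule. The median log2 fold change of the list was -0.39, beside a median of -5.1e-04 over all tested genes, and 11 of the 23 had groups that did not overlap (16.0% of all tested genes). In this bulk RNA, a lower level could mean fewer cells of a type or less RNA per cell, which cannot be told apart. Tcf7, Ccr7 and Tespa1 of this list were picked by the study from these libraries, so their RNA values here are no independent evidence of its direction. For Tcf7, the paper also measured the protein, Tcf1, by flow cytometry and reported less of it in Scd-1-/- Teff.

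Tcf7, Id3 and Als2cl were among the genes that fell. Tcf7 had 43.8, 78.2 and 66.0 FPKM in WT and 7.51, 6.47 and 5.55 FPKM in Scd-1-/- Teff. Its fitted change was -3.24 ± 0.242 on the log2 scale (SE; adjusted p = 0.00434, edgeR with Benjamini-Hochberg adjustment). Id3, an inhibitor of E proteins that marks memory precursors, had 8.08, 8.92 and 7.85 FPKM in WT and 3.42, 1.92 and 1.54 FPKM in Scd-1-/- Teff. In both genes the groups did not overlap. The log2 fold changes were -1.83 for Id3 and -1.50 for Als2cl, with adjusted p of 0.0898 and 0.0863 (edgeR with Benjamini-Hochberg adjustment). The calls other than Tcf7 rested on few libraries: the list kept 1 call when WT replicate 2, WT replicate 3 or knockout replicate 2 was left out, and 2 calls when knockout replicate 3 was left out, while Tcf7 passed in every fit tried.

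The 19 tested genes of the list that did not pass ran from -1.71 to 1.32 on the log2 scale. Ccr7, the chemokine receptor for lymph node entry, had 55.9, 207 and 204 FPKM in WT replicates 1, 2 and 3 and 35.8, 51.9 and 51.8 FPKM in Scd-1-/- replicates 1, 2 and 3, with a log2 fold change of -1.71 (adjusted p = 0.240, edgeR with Benjamini-Hochberg adjustment). As with Igfbp4, replicate 1 was the lowest library of each genotype. With the replicate number as a block in the edgeR fit, 6 genes of the list fell and 1 rose, where 0.717% of all tested genes fell and 1.19% rose. The added genes were Ccr7, Tespa1, a T cell receptor signalling adaptor, and Txk, a Tec kinase that rose, with adjusted p of 0.0190, 0.00685 and 0.0253 (edgeR with Benjamini-Hochberg adjustment). The WT level of Txk was 2.17, 0.892 and 0.933 FPKM, under the Scd-1-/- level of 3.35, 3.48 and 3.09 FPKM.

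Lef1 and Il7r had fitted differences close to 0 on the log2 scale, and they and Klf2 were named after their values were seen. Lef1, the partner of TCF1, had 16.6, 13.3 and 15.1 FPKM in WT and 15.7, 13.4 and 12.5 FPKM in Scd-1-/- Teff (log2 fold change -0.09, standard error 0.150). Il7r, the interleukin-7 receptor chain of resting T cells, had 14.7, 12.7 and 15.5 FPKM in WT and 14.9, 14.2 and 13.6 FPKM in Scd-1-/- Teff (0.02, standard error 0.146). In both genes the groups overlapped. Klf2, a factor of quiescence and trafficking, ran with the replicate number in the other direction than Igfbp4, with 70.5, 15.8 and 13.5 FPKM in WT replicates 1, 2 and 3 and 68.8, 25.6 and 27.5 FPKM in Scd-1-/- replicates 1, 2 and 3. Its log2 fold change was 0.30 (standard error 0.686) over all 6 libraries, 0.57 with the block and 0.89 with replicates 2 and 3 alone, and it passed in none of these fits. Bach2 was under the FPKM minimum, and Ccr9 had no counts.

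**Figure D4:**
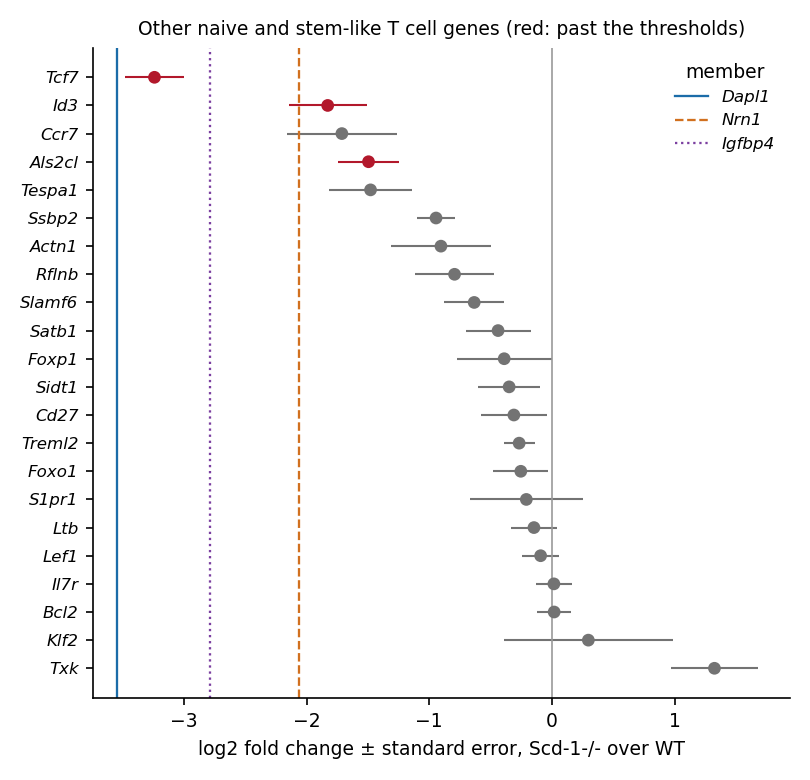
Log2 fold change of Scd-1-/- over WT Teff for 22 of the 23 tested genes of the naive and stem-like list, with standard errors (edgeR fit to 6 libraries). Red marks Tcf7, Id3 and Als2cl, which passed the thresholds, and vertical lines give Dapl1 (-3.55), Igfbp4 (-2.79) and Nrn1 (-2.06). Tcf7 (-3.24) is the listed gene nearest to Dapl1.

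Nrn1 is also known from anergic T cells, which fail to respond after incomplete stimulation. Of 10 anergy genes, 7 were tested, and Izumo1r alone fell by the thresholds, with 5.91, 6.89 and 6.64 FPKM in WT and 2.93, 1.91 and 1.94 FPKM in Scd-1-/- Teff (0.239% of all tested genes fell). The fitted change was -1.49 ± 0.235 on the log2 scale (SE; adjusted p = 0.0837, edgeR with Benjamini-Hochberg adjustment). This call was lost when replicate 2 or 3 of either genotype was left out. It was kept with the replicate block (-1.51, adjusted p = 0.0112, edgeR with Benjamini-Hochberg adjustment), where 0.717% of all tested genes fell. It was also kept with replicates 2 and 3 alone (-1.77), and the groups of Izumo1r did not overlap. The median of the tested list was -0.08. Ndrg1, a stress-responsive gene, had -0.54, and Cblb, a ubiquitin ligase that restrains T cell activation, had 0.24, and neither passed. With replicates 2 and 3 alone, where 3.83% of all tested genes passed, Ndrg1 had -1.09 and passed. Egr2 and Egr3, the transcription factors most tied to anergy, were under the FPKM minimum. Egr2 had 109, 4 and 26 counts in WT and 39, 15 and 5 counts in Scd-1-/- Teff, with overlapping groups. Egr3 had 32, 24 and 16 counts in WT and 16, 12 and 4 counts in Scd-1-/- Teff, and its FPKM groups did not overlap. In the fit with no FPKM minimum, the log2 fold changes were -1.24 for Egr2 and -1.20 for Egr3, and neither passed.

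The other genes of the neuritin family and its partners had almost no counts. Nrn1l, the paralog of Nrn1, and the AMPA receptor subunits Gria1, Gria2 and Gria4, which bind neuritin family proteins at synapses, had 0 counts in every library, which allows up to 3 counts or 0.214 CPM in the shallowest library and covers counting error only. Gria3 had 4, 0 and 6 counts in WT and 0 in each Scd-1-/- library. Nrn1 itself had 144 counts or more in every library. Nrn1 shares 920 bases at its end with Fars2, a mitochondrial tRNA synthetase gene on the plus strand. Fars2 had 676, 250 and 407 counts in WT replicates 1, 2 and 3 and 646, 412 and 399 counts in Scd-1-/- replicates 1, 2 and 3, with overlapping groups and a log2 fold change of 0.09 (standard error 0.350). Since the labels and the methods name different library kits, it is not certain that the counting used strand, and reads in the shared bases could have gone to either gene.

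For Dapl1, its paralog Dap and the calcineurin-NFAT genes were followed. Of these 16 genes 14 were tested, and 0 passed the thresholds in edgeR (0.738% of all tested genes), limma (0.582%) or DESeq2 (1.67%). Cabin1 alone had an unadjusted p under 0.05 in edgeR, as did 10.1% of all tested genes. The median log2 fold change was -0.11. Dap, a regulator of autophagy, had 106, 74.5 and 41.4 FPKM in WT replicates 1, 2 and 3 and 113, 68.0 and 41.9 FPKM in Scd-1-/- replicates 1, 2 and 3. Its values were close within each replicate number and its fitted difference was 0.02 with a standard error of 0.428, a sign that turned with the setting. The largest differences of the list were those of Orai1, the calcium channel upstream of calcineurin (-0.78), Cabin1, an inhibitor of calcineurin (-0.50), and Ppp3ca, a catalytic calcineurin subunit (0.44).

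Most of the relatives and partners of Igfbp4 had no counts or were under the FPKM minimum. Igfbp1, Igfbp2 and Igfbp3 had no counts, Igfbp5 had at most 4, and Igfbp7 had 7, 0 and 7 counts in WT and 10, 24 and 25 counts in Scd-1-/- Teff. Igfbp6 alone among these relatives was tested, with 0.711, 2.24 and 2.02 FPKM in WT and 1.04, 1.59 and 1.36 FPKM in Scd-1-/- Teff (log2 fold change -0.29, standard error 0.451), overlapping groups with replicate 1 again the lowest. Pappa2 and the ligand Igf2 had no counts, nor did Pappa, a protease that can cut Igfbp4. Igf1 had at most 4 counts. Of the 20 genes of the insulin-like growth factor axis, 4 were tested. The thresholds were passed by 0 of the 4 in edgeR (0.738% of all tested genes), limma (0.582%) or DESeq2 (1.67%). An unadjusted p under 0.05 in edgeR was found for 0 of them, beside 10.1% of all tested genes. The median log2 fold change of the 4 was -0.06, with -0.25 for Stc2, a stanniocalcin that inhibits Pappa, and 0.21 for the insulin receptor substrate Irs2. Igf2r, a receptor of this axis, was named after its values were seen. It was clearly expressed, with 20.3, 12.1 and 13.8 FPKM in WT and 18.9, 17.2 and 13.6 FPKM in Scd-1-/- Teff (0.13, standard error 0.228).

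The receptor for insulin-like growth factors, Igf1r, was under the FPKM minimum and was named after its values were seen. It had 87, 106 and 71 counts in WT replicates 1, 2 and 3 and 57, 17 and 17 counts in Scd-1-/- replicates 1, 2 and 3, groups that did not overlap. In the fit to all 17192 genes with a count, where 0.861% passed, its log2 fold change was -1.61 (adjusted p = 0.259, edgeR with Benjamini-Hochberg adjustment). A fit to the same genes with the replicate number as a block (1.81% of genes passed) was an alternative chosen after seeing the data. There Igf1r had -1.74 and passed the thresholds (adjusted p = 0.0295, edgeR with Benjamini-Hochberg adjustment). Insr, the insulin receptor gene, was also under the FPKM minimum and named after its values were seen. It had 175, 186 and 194 counts in WT and 127, 100 and 95 counts in Scd-1-/- Teff, without overlap. Its log2 fold change was -0.84 in the fit without the block and -0.85 with it, and it passed in neither.

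Igfbp4 can also act on Wnt receptors, and of 17 Wnt receptor and beta-catenin genes 5 were tested. The thresholds were passed by 0 of them in edgeR (0.738% of all tested genes), limma (0.582%) or DESeq2 (1.67%). Of the 5, 2 (Fzd7 and Lrp5) had an unadjusted p under 0.05 in edgeR, beside 10.1% of all tested genes. The median log2 fold change of the 5 was -0.20. Fzd7, a Frizzled receptor, had 50, 188 and 215 counts in WT replicates 1, 2 and 3 and 44, 48 and 82 counts in Scd-1-/- replicates 1, 2 and 3. Its groups overlapped, with a log2 fold change of -1.44 (adjusted p = 0.432, edgeR with Benjamini-Hochberg adjustment), and it became a call when WT replicate 1 was left out or replicates 2 and 3 were used alone (3.83% of tested genes passed in the latter fit). Lrp5, a co-receptor, had -0.45 and the kinase Gsk3b 0.21. Fzd8 and Fzd4 had no counts.

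Genes around the members were examined next, within 500 kb of each start. Of 68 annotated genes 45 were in the tables and 16 were tested. The thresholds were passed by 0 of the 16 in edgeR (0.738% of all tested genes) and in limma (0.582%) and by 1 in DESeq2 (1.67%). An unadjusted p under 0.05 in edgeR was found for 2 of the 16, beside 10.1% of all tested genes, and the median log2 fold change was -0.20. Around Dapl1, the nearest tested genes were Pkp4, 324 kb before its start (-0.27), and Tanc1, 127 kb after it (-0.20), neither of which passed. Around Nrn1 none was tested, F13a1 being the only one in the tables, with 10 counts in WT replicate 2 and 0 elsewhere.

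Top2a, the DNA topoisomerase of dividing cells, starts 17.1 kb before Igfbp4 and had 47.8, 42.4 and 50.0 FPKM in WT and 41.4, 44.2 and 50.4 FPKM in Scd-1-/- Teff, with overlapping groups and a log2 fold change of -0.02 (standard error 0.129). Gjd3, a connexin gene 58.2 kb before Igfbp4, had 6, 6 and 2 counts in WT and 2, 0 and 0 counts in Scd-1-/- Teff, under the FPKM minimum. Tns4, which encodes a tensin, starts 48.1 kb after Igfbp4. It had 8, 40 and 24 counts in WT replicates 1, 2 and 3 and 0, 0 and 6 counts in Scd-1-/- replicates 1, 2 and 3, under the FPKM minimum and without overlap, and it was named after its values were seen. Ccr7, 114 kb after Igfbp4, has its values given above and passed with the replicate block, while Smarce1, a chromatin remodelling subunit 190 kb after it, had a log2 fold change of 0.21. The remaining tested genes lay between -1.01 and 0.23. Thra, a thyroid hormone receptor gene 301 kb before Igfbp4, gave the lowest of these (adjusted p = 0.387, edgeR with Benjamini-Hochberg adjustment) and passed with replicates 2 and 3 alone.

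**Figure D5:**
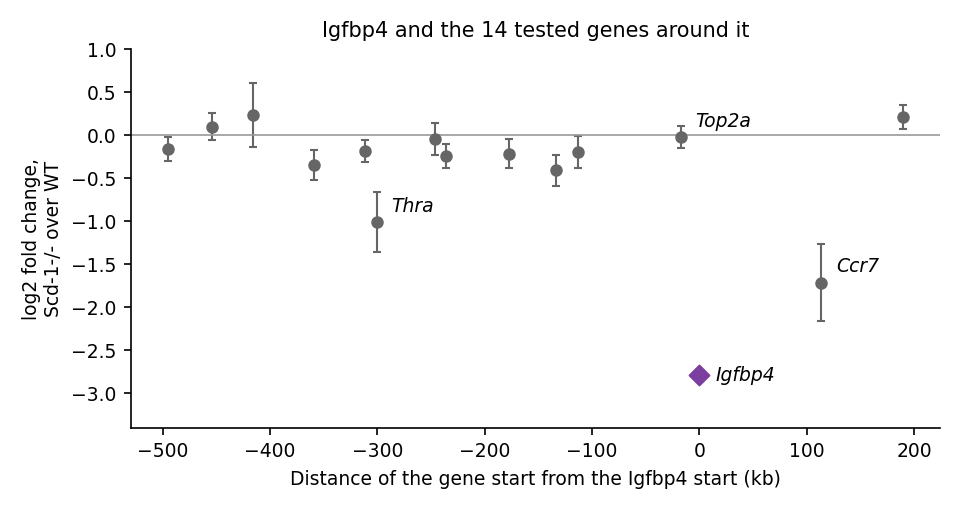
Log2 fold change of Scd-1-/- over WT Teff, with standard errors, for the 14 tested genes within 500 kb of Igfbp4, against the distance of their starts. Igfbp4 (-2.79) is the diamond. Ccr7 (-1.71) and Thra (-1.01) lie lowest, and Top2a (-0.02), the nearest, lies close to 0.

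Markers of other cells were read in the same libraries. Naive CD4+ T cells also express these genes, and Cd4 had 8, 24 and 12 counts in WT and 5, 2 and 1 counts in Scd-1-/- Teff. The 2 genes of the CD4 and regulatory T cell list, Cd4 and Foxp3, summed to between 0.156 and 0.387 FPKM in WT and between 0.0409 and 0.103 FPKM in Scd-1-/- Teff, under 1 FPKM in all libraries. Of the 5 B cell markers, Cd79b alone had more than 2 counts, and it was lower in Scd-1-/- Teff (342, 278 and 307 counts against 259, 93 and 123), and the list summed to between 9.41 and 10.7 FPKM in WT and between 3.13 and 7.99 FPKM in Scd-1-/- Teff. Pecam1 of the 3 endothelial markers was lower as well, with 987, 929 and 918 counts against 707, 514 and 578, while Cdh5 had no counts and Kdr had 1. Klrb1c of natural killer cells was higher in Scd-1-/- Teff, with 37, 55 and 65 counts against 126, 645 and 602. The other 2 markers of that list did not move with it, since Ncr1 had 0, 4 and 5 counts against 0, 0 and 2, and Klra8 had 1 count in 1 Scd-1-/- library. The list summed to between 0.501 and 1.16 FPKM in WT and between 1.72 and 9.39 FPKM in Scd-1-/- Teff. Of the 7 myeloid entries, Cd14 had 11, 5 and 4 counts against 28, 42 and 40, while Lyz2 had at most 2, Csf1r at most 4, Ly6g at most 9 and Adgre1 none. Itgam stood in the tables under 2 identifiers, with 16, 0 and 5 counts against 83, 13 and 16 for one and 40, 9 and 11 counts against 0, 13 and 21 for the other. The myeloid list summed to between 0.374 and 1.21 FPKM in WT and between 1.88 and 2.74 FPKM in Scd-1-/- Teff. Klrb1c passed the thresholds with the replicate block, in DESeq2 and with replicates 2 and 3 alone, Cd79b passed with replicates 2 and 3 alone, and Cd14, which is under the FPKM minimum, passed when no minimum was set. The part of such cells in the levels of Dapl1, Nrn1 and Igfbp4 was not tested.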

How the data were processed

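RNA-seq was analysed in 6 libraries of CD8+ Teff cells. Per the labels and methods, the authors checked reads with FastQC, aligned them to GRCm38 with HISAT2 and counted them with StringTie (1.3.0). The annotation release is not given in the sources used here. The authors deposited raw counts per gene (whole numbers, not normalized) and FPKM values, both for 34745 Ensembl genes.

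The labels gave the genotype and the replicate number. Neither the labels nor the methods say which mouse or culture each library came from, and the methods speak only in general of independent experiments. The p-values therefore measure the spread between these samples, which may be technical. The 9627 genes whose FPKM averaged 1 or more were tested on the counts with edgeR 4.0.16 (quasi-likelihood, TMM scaling) in R 4.3.3, with Benjamini-Hochberg adjustment. The thresholds of the study were used: a change of at least 1 on the log2 scale and p under 0.001. The 3 members, the 6 gene lists and 9 marker lists were chosen with earlier results of these data known. The members' own genotype difference was not tested. Same-numbered libraries deviated together from their group means (r = 0.595, 0.306 and 0.470 across genes, which are not independent), so the numbers were taken to pair the libraries, as a hint of the data and not of the labels. The split is that of replicate 1 against the rest: crossed pairs with replicate 1 had r from -0.560 to -0.316, but WT replicate 3 with knockout replicate 2 had 0.380, above the 0.306 of both replicates 2, and WT replicate 2 with knockout replicate 3 had 0.180. The numbers 2 and 3 are thus not clearly told apart.

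Named are the members, Scd1, list genes past the thresholds and the 3 tested genes of each list with the largest change, paralogs, tested neighbours within 500 kb, and the 5 genes most like each member. Others were named after their values were seen. A gene of the naive list and a marker gene count in their lists and are not reported here by name. Positions are those of GENCODE M21, matched by identifier for 34267 genes. The scripts were tested on simulated data. DESeq2 1.42.0 and limma 3.58.1 on log2(FPKM + 1) or log2(FPKM + 0.1) were among 14 alternatives. Intervals and floors of counts cover counting error only.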

Additional observations from a re-analysis of the deposited data

How the results depend on the processing

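The direction of Dapl1, Nrn1 and Igfbp4 was the same under all 14 alternatives. Leaving out 1 library gave log2 fold changes between -3.80 and -3.33 for Dapl1, between -2.23 and -1.94 for Nrn1 and between -3.29 and -2.29 for Igfbp4, and limma on log2(FPKM + 1) gave -3.07 for Dapl1, since its pseudocount shrinks low values. Counts of genes past the thresholds moved more. Of all genes, 71 passed with 6 libraries, 184 with the replicate block, 369 with replicates 2 and 3 alone, 161 with DESeq2, 148 with no FPKM minimum, 43 with a minimum of 5 and between 25 and 163 when 1 library was left out. For the naive list the count was 4, with 7 under the replicate block, 7 with DESeq2, 8 with replicates 2 and 3 alone and between 1 and 5 without 1 library. The anergy list gave 1, with 2 for replicates 2 and 3 alone, 0 with a minimum of 5 and between 0 and 1 without 1 library. The Wnt list gave 0, with 1 for replicates 2 and 3 alone and between 0 and 1 without 1 library. Neighbours gave 0, with 1 in DESeq2, 1 under the replicate block, 2 for replicates 2 and 3 alone and between 0 and 1 without 1 library. The cause of these changes was not tested. With the FPKM minimum kept, the replicate block changed the count of no other gene list (without it, Igf1r was 1 call of the insulin-like growth factor axis under the block and 0 without the block), and of the marker lists only that of natural killer cells, from 0 to 1 (Klrb1c). Values near 0 changed sign. With replicates 2 and 3 alone, Dap gave -0.048 and Top2a 0.073. In the limma fits with a pseudocount of 1 and of 0.1, Dap gave -0.0080 and -0.0082, and Il7r -0.0042 in both. Without 1 library, Dap ran from -0.42 to 0.39, Top2a from -0.11 to 0.039, Il7r from -0.061 to 0.058, Klf2 from -0.32 to 1.51, Fars2 from -0.18 to 0.50, Irs2 from -0.032 to 0.44, Tanc1 from -0.67 to 0.11 and Lef1 from -0.19 to 0.0048. Depth limits the Scd-1-/- values of Dapl1 most, with 21 to 37 counts.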
